A study of Mus musculus with 11 samples.

Results

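The genes described here are 6 genes of the primitive red blood cell: Hbb-bh1 and Hbb-y of the beta-globin cluster and Hba-x of the alpha-globin cluster, all embryonic forms, the haem enzyme Alas2, and the transcription factors Gata1 and Klf1. They are 6 of the 19938 genes measured, and each has 1 probe that carries its symbol alone (probes 10566268, 10566272, 10375046, 10602372, 10603417 and 10573457). They were chosen by name after their ratios on these same arrays were known. Their values are therefore given as a description, with no test.

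Primitive erythroid cells arise in the blood islands of the yolk sac and enter the embryo's vessels as the heart begins to beat. Their haemoglobin pairs embryonic chains of the beta-globin cluster with embryonic or adult chains of the alpha-globin cluster. Haem for it is made by a chain of mitochondrial and cytosolic enzymes that begins with Alas2 in erythroid cells, and GATA1 and KLF1 switch on globin, haem and membrane genes together.

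The arrays hold RNA from CD1 outbred mouse embryos at E8.5, with the morning of the vaginal plug counted as E0.5. All groups share strain and stage and differ in the tissue taken: paraxial mesoderm on 3 arrays, neuroepithelium on 3 and neural crest on 5. Cells were cut by laser from frozen sections and the RNA was amplified before labelling. Neither the embryo nor the number of cells behind an array is given, so p-values measure only the spread between these arrays, which may be technical.

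Each value is a ratio of an array to a reference of the same probe, and how the reference was formed is not stated. A ratio near 1 says nothing of the level: a gene silent everywhere and a gene equally active everywhere both sit near 1. A gene is called high on an array when its ratio is at least 4. High is thus relative to the reference, which need not lie near most arrays. Hmox2, for example, was high on 6 of the 11 arrays, and Alad, also high on 6, had 3.98 on a further array. Mesoderm array 1, on which the erythroid genes stand out, also had the most high genes of any array, 1617 (8.11% of all genes) against 381 to 1500 on the other arrays. The part of this in the erythroid values was not tested. The labelled tissue could not be checked by its markers, because 21 of 22 measured paraxial mesoderm genes stayed within 2-fold of their reference on all 11 arrays.

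All 6 genes were high on mesoderm array 1 and on none of the other 10 arrays. On that array the ratios ran from 46.6 for Klf1 to 269 for Hbb-bh1, with a median of 81.0. On the other arrays the 60 values lay between 0.855 and 1.38, and 51 of them were within 10% of 1. The share of all genes high on an array was 3.69%, 2.91% and 5.63% on neuroepithelium arrays 1 to 3, 2.06%, 5.81%, 5.34%, 2.06% and 7.52% on crest arrays 1 to 5, and 8.11%, 4.03% and 1.91% on mesoderm arrays 1 to 3. The background is 2.23% of all genes high on mesoderm array 1 and on no other array, and nothing is read from that comparison since these ratios chose the genes.

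**Figure D1:**
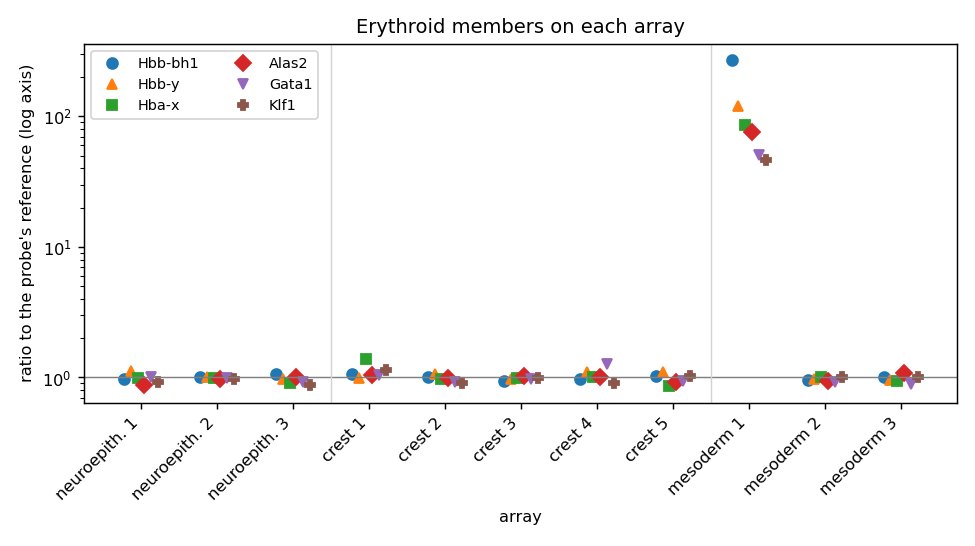
Ratio to the probe's own reference (log axis) of the 6 erythroid genes on each of the 11 arrays, 1 symbol per gene, with the line at 1. All 6 lie between 46.6 and 269 on mesoderm array 1, whereas every other point lies between 0.855 and 1.38.

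Hbb-bh1, the beta-like chain made first in primitive red cells, had ratios of 0.953 and 1.00 on mesoderm arrays 2 and 3 and 269 on array 1. It had 0.969, 1.01 and 1.07 on the neuroepithelium arrays and 1.07, 1.00, 0.947, 0.976 and 1.03 on the crest arrays. The ratio of 269 was the highest of any probe on that array, and 252-fold above the highest value of the gene elsewhere.

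Hbb-y, the epsilon-like chain of the same cluster, had 120.0, 0.973 and 0.955 on the mesoderm arrays. Its neuroepithelium ratios were 1.12, 1.01 and 0.975, and its crest ratios 0.989, 1.07, 0.968, 1.11 and 1.0985. Mesoderm array 1 stood 107-fold above the next array, and the other mesoderm arrays lay just below the 3 neuroepithelium values and within the range of crest or just under it.

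Hba-x, the zeta chain of the alpha cluster, had 85.5, 1.01 and 0.944 in paraxial mesoderm. It had 0.990, 0.992 and 0.915 in neuroepithelium and 1.38, 0.970, 0.998, 1.00 and 0.855 in neural crest. The 1.38 on crest array 1 was the highest ratio that any of the 6 genes reached away from mesoderm array 1, which exceeded it 61.9-fold.

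Alas2, which makes the first intermediate of haem, had 76.6, 0.940 and 1.08 in paraxial mesoderm. Its ratios were 0.877, 0.977 and 1.00 in neuroepithelium and 1.04, 0.993, 1.02, 1.00 and 0.919 in neural crest. The groups overlapped apart from the value of 76.6.

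Gata1, the zinc-finger factor needed for erythroid maturation, had 50.9, 0.928 and 0.888 in paraxial mesoderm, 1.00, 0.986 and 0.928 in neuroepithelium, and 1.05, 0.927, 0.982, 1.26 and 0.935 in neural crest. Klf1, a factor that binds CACCC boxes of globin genes, had 46.6, 1.00 and 1.00 in paraxial mesoderm, 0.917, 0.976 and 0.877 in neuroepithelium, and 1.15, 0.908, 0.996, 0.906 and 1.03 in neural crest. These factors had the lowest of the 6 ratios on mesoderm array 1 and the globins the highest, a comparison between probes whose references differ and which gives no order of expression.

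Averaged by tissue, the mesoderm mean of each of the 6 genes rested on mesoderm array 1. The log2 mean of Hbb-bh1 was 2.67 ± 4.68 (SD, n = 3) in paraxial mesoderm, 0.00 ± 0.07 (n = 5) in neural crest and 0.02 ± 0.07 (n = 3) in neuroepithelium. For Klf1 the means were 1.85 ± 3.20, -0.01 ± 0.14 and -0.12 ± 0.08. In each of the 6 genes the mesoderm SD exceeded the mesoderm mean. Over all 6, mesoderm exceeded crest by a mean log2 difference of 2.11 and neuroepithelium by 2.17, and without mesoderm array 1 these became -0.06 and -0.01. Neural crest and neuroepithelium differed by 0.06. In bulk RNA such as this, fewer cells of a type and less RNA per cell cannot be told apart.

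No member separated mesoderm from neural crest on every array (0 of 6, against 1.2% of all genes with every mesoderm array above every crest array). Klf1 was the single member with every mesoderm array above every neuroepithelium array (1 of 6, against 2.82% of all genes), and mesoderm arrays 2 and 3, at 1.00 each, were close to the highest neuroepithelium value of 0.976.

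The promoters of the genes that were high together are shown for the motifs of the 2 factors among them. The RefSeq promoter sequences used (GRCm38.p6) covered 5 of the 6, with none for Hbb-bh1. The 170 bases before each RefSeq start are printed on the gene's strand, from base -170 to base -1. Capitals mark matches on either strand to TGATAA and AGATAA, the letters that GATA factors read, to CACCC, the box of KLF factors, and to CCAAT. No match overlapped another.

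Hbb-y, chr7:103853208-103853377, minus strand: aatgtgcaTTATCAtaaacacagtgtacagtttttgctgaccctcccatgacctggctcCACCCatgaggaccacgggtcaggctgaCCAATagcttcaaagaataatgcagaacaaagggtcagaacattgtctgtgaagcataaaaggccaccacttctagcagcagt
Hba-x, chr11:32276430-32276599, plus strand: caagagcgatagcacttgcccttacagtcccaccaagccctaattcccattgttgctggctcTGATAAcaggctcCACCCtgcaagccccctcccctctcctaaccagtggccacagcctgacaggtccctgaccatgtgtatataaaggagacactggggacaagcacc
Alas2, chrX:150547247-150547416, plus strand: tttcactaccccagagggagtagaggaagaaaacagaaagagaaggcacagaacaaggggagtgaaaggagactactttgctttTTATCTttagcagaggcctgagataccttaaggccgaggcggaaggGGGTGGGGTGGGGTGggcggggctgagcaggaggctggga
Gata1, chrX:7967911-7968080, minus strand: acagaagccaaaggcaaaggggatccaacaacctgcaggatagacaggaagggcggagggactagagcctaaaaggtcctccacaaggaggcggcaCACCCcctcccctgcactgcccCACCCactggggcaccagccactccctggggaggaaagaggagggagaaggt
Klf1, chr8:84901812-84901981, plus strand: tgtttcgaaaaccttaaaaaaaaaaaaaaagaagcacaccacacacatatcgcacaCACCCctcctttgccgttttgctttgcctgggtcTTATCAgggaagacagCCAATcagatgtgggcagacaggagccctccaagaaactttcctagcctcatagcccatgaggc

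TGATAA or AGATAA was found in 4 of these 5 windows, against 11.1% of the 32851 RefSeq promoter windows of the same length, and the Gata1 window held neither. CACCC was found in all 5, against 40.9% of windows, with 3 adjoining copies in Alas2 from base -40 to base -26. CCAAT was found in 2, against 26.6%. A wider set is the further erythroid genes, listed below, that were high on the same array and had a promoter window. Of these 25 genes, 7 (28.0%) held TGATAA or AGATAA, 18 (72.0%) held CACCC and 7 (28.0%) held CCAAT. Their GATA and CACCC shares were above those of all windows but below those of the 5 members. In Hba-x the GATA letters began at base -108 and the CACCC box at base -95. A match of letters is a description and no evidence of binding.

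The rest of the globin family was split. The probes for the adult alpha genes each carry both symbols, Hba-a1 and Hba-a2, and stood at 44.1 and 43.1 on mesoderm array 1 and at 0.806 to 1.28 on the other arrays. These copies are nearly identical and cannot be told apart, so which of them gave the signal is uncertain. Hbq1b, a theta-globin gene next to the alpha genes, had 44.1 on mesoderm array 1 and 0.770 to 1.37 elsewhere. Its near-copy Hbq1a reached 1.38.

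Adult beta-globin did not share the pattern. The probes shared by Hbb-b1, Hbb-b2, Hbb-bs and Hbb-bt had 0.990 and 0.965 on mesoderm array 1 and 0.906 to 1.19 elsewhere. Hbb-bh2, a further gene of the same cluster, had 1.04 there and 0.940 to 1.11 elsewhere. A level common to all arrays would look the same as no expression in these ratios.

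The genes beside the members on the chromosome were mixed. Of the 20 measured genes nearest to a member, taken as 2 on each side, 3 (15%) were high on mesoderm array 1, against 8.11% of all genes. These were Hbq1b, the DNA glycosylase Mpg beside the alpha cluster (6.08, with up to 27.1 on another array) and Syce2, a meiotic protein gene beside Klf1 (8.98, with up to 6.23 elsewhere). The olfactory receptor genes around the beta cluster, Olfr64, Olfr66 and Olfr67, had 1.00 each. Maged2, beside Alas2, was the 1 neighbour at least 4-fold low there, with 0.0962, against 0.542% of all genes, and it had 0.102 to 4.21 on the other arrays. Eras beside Gata1 and Gcdh beside Klf1 had 0.932 and 1.08 on mesoderm array 1 and reached 28.1 and 18.5 on another array.

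The wider erythroid programme was read from 101 further genes in 7 lists, of which 89 were measured by a probe of their own. On mesoderm array 1, 32 of the 89 (36.0%) were high, against 8.11% of all genes. On the other arrays 1 to 7 were high (1.12% to 7.87%, against 1.91% to 7.52% of all genes). The list median on mesoderm array 1 was a log2 ratio of 0.31, against 0.00 over all genes. High on mesoderm array 1 and on no other array were 22 of the 89, against 2.23% of all genes. The count of 32 became 19 (21.3%, against 4.18% of all genes) after quantile normalization between arrays. These lists were drawn up with earlier results on red cell genes in view, so the counts do not stand as independent support.

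**Figure D2:**
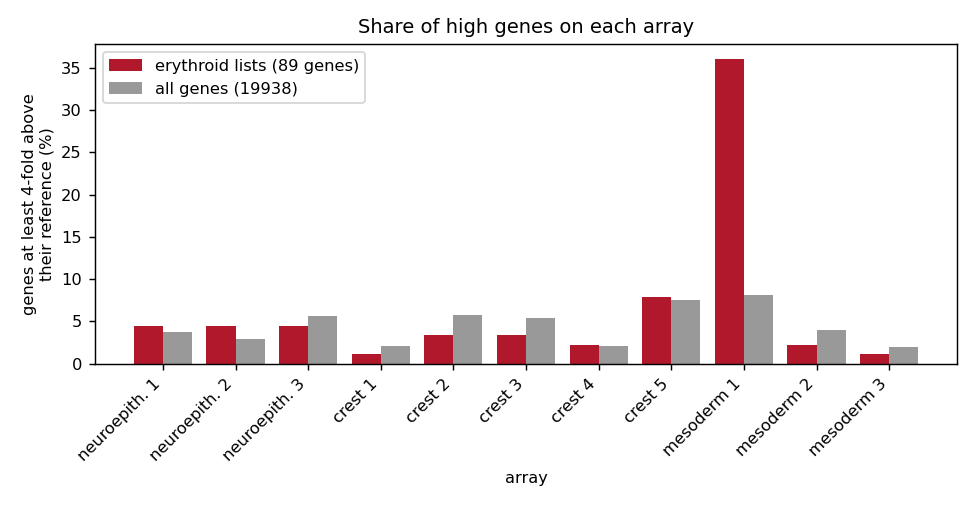
Share of genes at least 4-fold above their reference on each array, in percent, for the 89 erythroid list genes (red) and for all 19938 genes (grey). The red bar reaches 36.0% on mesoderm array 1 against 8.11% of all genes, and it lies between 1.12% and 7.87% on every other array.

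Transcription factors formed the list with the plainest pattern: 8 of 19 were high on mesoderm array 1, and 0 on any other array. Of all genes, 8.11% were high on mesoderm array 1 and 2.23% on that array alone. Lmo2, the bridging protein of the complex that holds GATA1 and TAL1, had 68.6, with 0.901 to 1.095 on the other arrays. Lyl1, a relative of TAL1, had 52.1 against 0.809 to 1.17. Nfe2, a leucine zipper factor that acts on the globin locus control region, had 36.3 against 0.842 to 1.12.

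Zfpm1, the FOG1 partner of GATA1, had 11.97 against 0.841 to 1.33. The other 4 were E2f4 (8.46), Myb (7.71), Cbfa2t3 (5.12) and Ikzf1 (4.21), named after their values were seen. E2f4 reached 3.19 on neuroepithelium array 3, whereas Myb, Cbfa2t3 and Ikzf1 reached at most 1.08, 1.11 and 1.18 elsewhere. The Cbfa2t3 value is from 1 of its 2 probes, the one with the higher mean log2 ratio. Tal1 itself had 1.96, and Gata2, Runx1, Gfi1b and Bcl11a had 0.889, 1.05, 0.826 and 0.869, so several regulators of the same programme sat at their reference.

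Haem synthesis was high in parts of the chain and not in others. Of 11 measured enzymes and transporters, 7 were high on mesoderm array 1 (8.11% of all genes), and 3 of these on no other array (2.23% of all genes). Cpox, the mitochondrial coproporphyrinogen oxidase, had 100.05 on mesoderm array 1, 2.96 on array 2 and 0.810 to 1.04 on the rest. Fech, which inserts iron into the ring in the last step, had 43.3 against 0.956 to 1.08.

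Slc25a37, the mitoferrin that brings iron into mitochondria, had 37.7 against 0.963 to 1.04. Glrx5, an iron-sulphur cluster protein, had 45.8 there and 32.9 on neuroepithelium array 1. Abcb10, a mitochondrial transporter of erythroid cells, had 14.8 there and 8.26 on neuroepithelium array 3. The glycine carrier Slc25a38 had 8.02 there but 41.6 on crest array 2.

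Ppox, the enzyme between CPOX and FECH, ran the other way. It had 0.868 on mesoderm array 1 and 46.4 and 26.02 on mesoderm arrays 2 and 3, with 0.893 to 1.01 on the neuroepithelium and crest arrays. Ppox was the single list gene that passed in any of the 22 settings of a comparison, and it passed without mesoderm array 1. It was then higher in mesoderm than in crest by log2 5.22 (SE 0.18, limma adjusted p = 6.02e-05) and than in neuroepithelium by 5.14 (SE 0.20, limma adjusted p = 6.71e-05). On all arrays the differences were 3.45 (SE 1.08) and 3.36 (SE 1.21), with limma adjusted p = 0.9998 and 0.9999. The setting in which Ppox passed drops the mesoderm array without the rise and keeps only mesoderm arrays 2 and 3. Its small p-values therefore do not measure a difference between the tissues. Ppox was named after its values were seen.

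The early cytosolic enzymes Alad and Urod differed in another way. Alad had 4.92 on mesoderm array 1, like 3.98 to 4.83 on 6 other arrays, and 0.0716 and 0.0610 on mesoderm arrays 2 and 3. Urod had 2.68 on mesoderm array 1 and 0.0267 and 0.0279 on arrays 2 and 3, with equally low values on neuroepithelium array 3 and crest array 4. Mesoderm array 1 thus lay with most arrays for these genes, though Alad counts among the 7 high there. Uros, a further early enzyme, was not low on mesoderm arrays 2 and 3 (0.972 and 0.973). It had 2.24 on mesoderm array 1 and 9.49 on crest array 5. Alas1, the housekeeping form of the first enzyme, had 0.832 on mesoderm array 1.

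**Figure D3:**
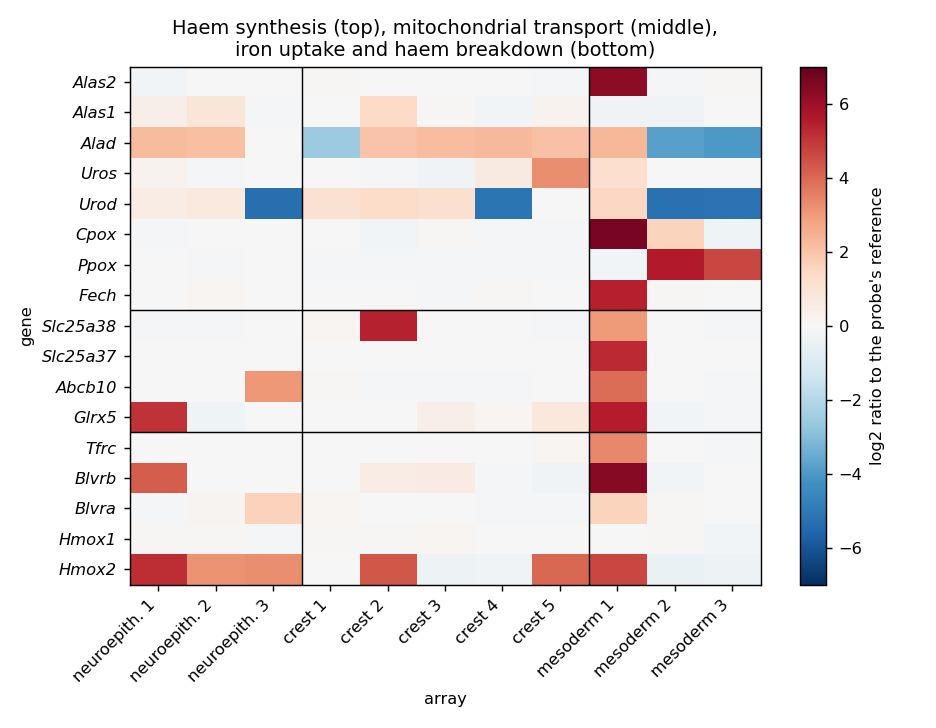
Log2 ratio to each probe's reference (colour, red above and blue below) for genes of haem synthesis in the order of the chain, mitochondrial transport, and iron uptake and haem breakdown, on the 11 arrays. Alas2, Cpox and Fech are red on mesoderm array 1 (76.6, 100.05 and 43.3 as ratios), whereas Ppox is red on mesoderm arrays 2 and 3.

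Iron and haem handling had 4 of 15 genes high on mesoderm array 1 (8.11% of all genes), of which 1 was high nowhere else (2.23% of all genes). That gene was Tfrc, the transferrin receptor, with 10.3 against 0.944 to 1.09. Blvrb, a flavin and biliverdin reductase abundant in red cells, had 84.2 there and 19.2 on neuroepithelium array 1. Abcg2, a porphyrin exporter, had 45.6 there, 26.4 on neuroepithelium array 3 and 17.7 on crest array 5. Hmox2, the constitutive haem oxygenase, had 25.5 there and was high on 5 other arrays. The inducible Hmox1 had 0.985.

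The red cell membrane list had 7 of 16 genes high on mesoderm array 1 (8.11% of all genes), all 7 of them high on no other array (2.23% of all genes). Tmod1, which caps actin filaments of the skeleton, had 44.9 against 0.916 to 1.08. This is 1 of its 2 probes, the one with the higher mean log2 ratio, and the other is not shown. The Rhesus genes Rhd and Rhag had 19.6 and 19.2, against 0.918 to 1.09 and 0.944 to 1.02. Epb42, which ties the skeleton to the anion exchanger, had 15.2 against 0.910 to 1.11.

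Ermap (8.56), the adducin Add2 (6.99) and the glycophorin Gypc (6.54) completed the 7. The anion exchanger Slc4a1, the ankyrin Ank1 and the spectrin Sptb, main parts of the mature membrane, had 1.03, 1.07 and 1.26. Cd24a had the lowest ratio of any list gene on that array, 0.0141, and was the 1 list gene at least 4-fold low there, against 0.542% of all genes.

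Signalling and enzyme genes were less uniform. Epor, the erythropoietin receptor, had 11.9 against 0.797 to 1.63, and its kinase Jak2 had 7.14 there and 6.72 on crest array 5. Of the 9 genes of that list, these 2 were high on mesoderm array 1, against 8.11% of all genes. Kit had 0.943.

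Of 16 red cell enzyme and maturation genes, 3 were high on mesoderm array 1 (8.11% of all genes), and 1 of them on no other array (2.23% of all genes). Trim10, a ring-finger gene of erythroid cells, had 50.3 against 0.911 to 1.08. Car2, a carbonic anhydrase, had 168 there but also 29.4 to 139.6 on 4 other arrays. Nt5c3, a pyrimidine nucleotidase, had 45.8 there, 70.2 on mesoderm array 2, and 6.69 and 39.3 on crest arrays 2 and 3. Car1, Bpgm, Alox15 and Pklr, genes of later red cells, had 1.02, 1.09, 0.839 and 0.977.

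**Figure D4:**
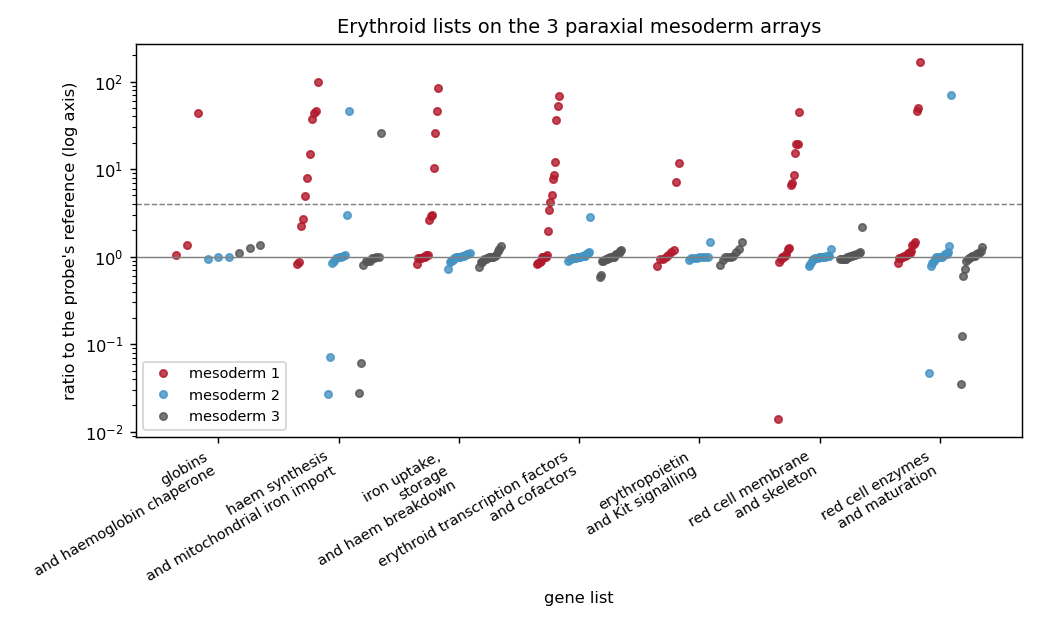
Ratio to the probe's reference (log axis) of every measured gene of the 7 erythroid lists on the 3 mesoderm arrays, 1 point per gene and array, with lines at 1 and at the 4-fold limit. On mesoderm array 1 (red) 32 points lie above the limit, against 2 on array 2 and 1 on array 3.

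The comparison of tissue means did not call any of the 89 list genes. In limma, 0 of the 89 passed between mesoderm and crest (3 at unadjusted p under 0.05), 0 between mesoderm and neuroepithelium (4 unadjusted) and 0 between crest and neuroepithelium (1 unadjusted). With an intensity trend in the same tool 0 passed as well. Over all genes 2 (0.01%), 3 (0.015%) and 6 (0.0301%) passed in these comparisons. The median log2 difference of the 89 was 0.11 between mesoderm and crest, 0.14 between mesoderm and neuroepithelium and 0.01 between crest and neuroepithelium, against 0.00 over all genes in each. Between mesoderm and crest 56 of the 89 (62.9%) had a positive difference, against 48.8% of all genes. The first 2 of these comparisons share the mesoderm arrays. Every mesoderm array lay above every crest array in 3 of the 89 (1.2% of all genes) and above every neuroepithelium array in 6 (2.82%).

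Some genes outside the lists followed the 6 closely. By the root mean square difference in log2 ratio from the mean of the 6 genes over all 11 arrays, the nearest was the clustered histone gene H2bc4 (0.09), with 91.6 on mesoderm array 1 and 0.960 to 1.08 elsewhere. Histone H2B genes are near-copies of each other, so the source of its signal is uncertain. Lmo2 (0.15) ranked 3 and was the 1 list gene among the 10 nearest. For scale, Alas2 itself lay at 0.10 and Hbb-bh1 at 0.49 from that mean.

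The others among the 10 nearest were Rbbp6 (77.0 on mesoderm array 1), Dhrs11 (63.5), Ropn1l (60.3), Celf1 (62.6), the tartrate-resistant phosphatase Acp5 (80.7), Gpatch8 (60.6), the thioesterase Acot13 (53.1) and the metal transporter Slc39a8 (54.3). Their differences ran up to 0.23. Genes with several probes disagreed between them: the other Rbbp6 probes had 1.00 and 1.04 on that array, the other Gpatch8 probes 0.811 to 1.20, and the other Celf1 probe 0.0293. Likeness over 11 arrays of which 1 stands apart says only that a gene was high on that array.

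Markers of other cell types of the blood and yolk sac were not high on mesoderm array 1. Of 15 endothelial genes 0 were high there, with ratios from 0.776 to 1.08, and Pecam1 and Kdr had 1.01 and 0.911. The summed ratio of the 15 was 14.0 to 22.4 on the mesoderm arrays, 14.4 to 15.5 in crest and 14.3 to 47.9 in neuroepithelium, lowest on mesoderm array 1. The largest sums came from Egfl7, with 33.8 on neuroepithelium array 1 and 8.34 on mesoderm array 3. On all arrays 14 of the 15 genes stayed within 2-fold of their reference, so the sums give no endothelial difference between arrays. Of 7 measured megakaryocyte genes 0 were high (0.857 to 1.01), of 12 macrophage and myeloid genes 0 (0.908 to 1.08), and of 13 visceral endoderm genes 0 (0.797 to 1.01). The background is again 8.11%. The measured megakaryocyte, myeloid and visceral endoderm genes all stayed within 2-fold of their reference on every array. Their ratios therefore cannot show whether such cells were present.

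Tissue markers gave the same count on that array: 0 of 22 paraxial mesoderm, 0 of 12 neural crest, 0 of 12 neuroepithelium and 0 of 10 cardiac genes were high. The summed ratio of the 22 mesoderm genes was 20.7 on mesoderm array 1, the lowest of the 3 mesoderm arrays, with up to 22.9 on the others and 20.9 to 24.2 across the other tissues. The summed ratio of the 6 erythroid genes, whose ratios chose them, was 649 on mesoderm array 1. It was 5.80 on the lowest mesoderm array and 5.76 to 6.68 on the neuroepithelium and crest arrays.

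**Figure D5:**
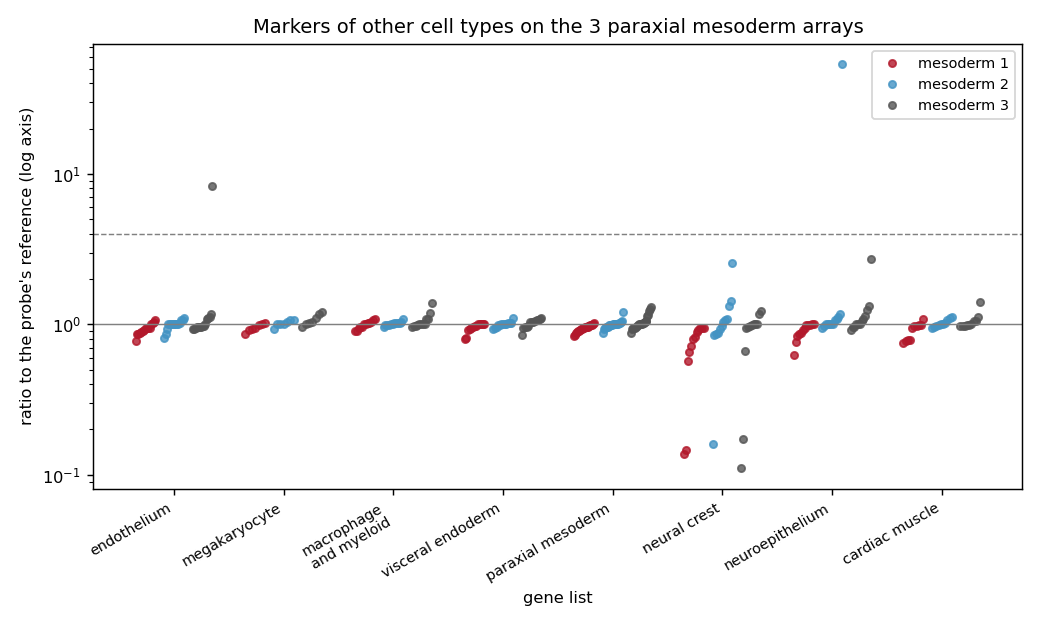
Ratio to the probe's reference (log axis) of marker genes of 8 other cell types and tissues on the 3 mesoderm arrays, 1 point per gene and array, with lines at 1 and at the 4-fold limit. No point of mesoderm array 1 (red) lies above the limit in any of the 8 lists.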

How the data were processed

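Deposited values of 11 Affymetrix mouse ST arrays were used. Per the submitters' processing notes, RMA and the build mm9 were named without a version. The authors deposited a linear ratio of each array to a value of the same probe, and the sources used here do not say how it was formed. Of 35557 probes, 28856 had values, and 21789 of these had 1 symbol in the platform annotation (1621 several, 5446 none). Symbols were checked by Entrez identifier against RefSeq (21698 matched, 0 changed). The probe with the highest mean log2 ratio stood for each gene, which gave 19938 genes, and 0 columns were left unmapped. No coordinates of the array's build are printed.

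Log2 ratios were fitted for all 11 arrays with limma 3.58.1 under R 4.3.3 (lmFit, eBayes without an intensity trend), two-sided, with Benjamini-Hochberg adjustment over all genes and a threshold of 0.05. The fit was tested on simulated data. The number of arrays limits the precision, and ratios carry no depth. The members and lists were chosen with earlier results of these data known. Named were the 6 members, the 20 list genes with the largest ratios of at least 4 on the array where the median member was highest, list genes past the threshold, the 10 nearest genes, and high markers. Others were named after their values were seen. Of the listed erythroid genes, 12 have no single-symbol probe and were not analysed as genes. The search for a crest array far from the others covered the 6 members and all 89 measured list genes. Alternatives were the trend, replicate block, centring, quantile normalization, probe choice, filter, floor, pseudocount, fold limit, fewer tissues and each array left out.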

Additional observations from a re-analysis of the deposited data

Results flagged for a closer look

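The probes shared by the adult alpha-globin genes Hba-a1 and Hba-a2, which stand outside the gene table because they carry several symbols, had ratios of 44.1 and 43.1 on paraxial mesoderm array 1, above the 0.806 to 1.28 of the other 10 arrays. Among the 6 members and the 89 measured list genes, 12 of 95 genes had 1 of the 5 neural crest arrays far from the other 4. The rule has a nominal rate of about 1 in 20 groups, which was not checked for these ratios. The share over all genes was not counted, so the 12 are not read as an excess among red cell genes. None of the 12 was a member. On crest array 1 these were Mpp1 (86.6, next 1.15), Hbq1a (1.21), Sptb (1.15), and on the low side Alad (0.171, next 3.98) and Prdx2 (0.0224, next 0.739). On crest array 2 it was Slc25a38 (41.6, next 1.08), and on crest array 4, on the low side, Urod (0.0284, next 1.03). On crest array 5 they were Abcg2 (17.7, next 1.17), Uros (9.49, next 1.54), Hebp1 (4.75, next 1.05), Ireb2 (1.33) and, on the low side, Bcl11a (0.803).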

How the results depend on the processing

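The mean log2 difference of the 6 members between mesoderm and crest (2.11) and between mesoderm and neuroepithelium (2.17) was -0.06 and -0.01 without mesoderm array 1, and 2.02 to 3.20 and 2.12 to 3.26 under the other settings. The count of list genes high on mesoderm array 1 was 38 at a 2-fold limit, 25 at 8-fold, 31 with the mean of a gene's probes, 34 with probes of several symbols (added after seeing the data) and 19 after quantile normalization. The genes called between mesoderm and crest (2) were 0 with the trend and 1 to 43 with an array left out. Between mesoderm and neuroepithelium (3) they were 5 with the arrays of the 2 tissues alone and 3 to 39 with an array left out, and between crest and neuroepithelium (6) they were 2 with the trend, 11 with the arrays of the 2 tissues alone and 5 to 19 with an array left out. The cause of these moves was not tested, though a left-out array leaves fewer samples. With the replicate block these counts were 3, 2 and 6. Arrays of the same number deviated from their group means with correlations of -0.15 to 0.05 over 9 pairs. Arrays of different numbers had -0.16 to 0.17 over 30 pairs. So few pairs cannot show whether arrays of the same number share an embryo or a batch. Each tissue has 3 to 5 arrays, and the pattern rests on 1 of them.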
